A study of Mus musculus with 2 samples.

Results

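Epidermal growth factor (EGF) receptor ligands and other growth factors of tissue repair were examined in inflammatory monocytes from the inflamed mouse colon, with and without the gene Nlrp6. The 10 genes were listed by name: the EGF receptor ligands Areg, Ereg, Hbegf and Tgfa, the neuregulin Nrg1, and Tgfb1, Pdgfa, Pdgfb, Hgf and Wnt5a. Of these 10, among 22184 genes named on the array, 9 had a probe set of their own. Areg was not analysed here, because no probe set was paired with its symbol alone or with several symbols.

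Both samples were CD11b+ Ly6C-high cells lacking CD3 and Ly6G, sorted from the colon lamina propria on day 10 of an AOM/DSS protocol. All mice received 10 mg/kg azoxymethane (AOM), a colon carcinogen, by intraperitoneal injection, followed by 5 days of 2% DSS (dextran sodium sulfate, an agent that damages the epithelium) beginning on day 5. One group was wild type (WT), of strain C57BL/6, and the other was Nlrp6-/-, with its strain given as C57Bl/6. Nlrp6 encodes a NOD-like receptor that is studied chiefly in the intestinal epithelium. The labels state neither the age nor the number of the mice, nor how the allele was made or whether littermates were used. Each group was 1 Affymetrix Mouse Gene 2.1 ST array, so no difference below has a replicate error or a p-value, and each describes these 2 arrays.

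EGF receptor ligands are made as membrane-bound precursors. A metalloprotease, chiefly ADAM17, cuts them free, and they then act on neighbouring cells through the receptor EGFR, alone or paired with related ErbB receptors. In the injured gut, ligands from myeloid and stromal cells reach the epithelium and promote its survival and regrowth. Transforming growth factor beta, platelet-derived growth factor, hepatocyte growth factor and WNT5A act through receptors of their own on epithelium and on the stroma that forms granulation tissue.

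Of the 9 measured genes, Ereg was the one that differed by 2-fold or more, and its Nlrp6-/- level was the higher by a log2 difference of 1.38 (2.60-fold). Tgfb1 was lower by 1.58-fold, a log2 difference of -0.66. In such bulk samples, more cells that make a transcript and more of it per cell cannot be told apart. Nrg1 and Hbegf, both above the floor on both arrays, had differences of -0.15 and 0.08. Tgfa, Pdgfb, Hgf and Wnt5a were under the detection floor on both arrays. Levels are log2 values. The floors, 3.26 for WT and 3.22 for Nlrp6-/-, were set at the 95th percentile of the levels of 1401 olfactory or vomeronasal receptor probe sets, which serve as silent genes. Each level depends on the probes of its own set, so the genes are compared between arrays and are not ranked against each other.

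Against all genes, 1 of the 5 growth factors above the floor reached 2-fold towards Nlrp6-/- and 0 reached it towards WT. Of the 9527 genes detected on 1 or both arrays, 1.62% were 2-fold or more higher in Nlrp6-/- and 0.325% were 2-fold or more lower. At 1.5-fold, a log2 difference of 0.585, the counts were 1 higher and 1 lower, and the shares of all genes were 6.21% and 3.05%. The median difference of the 5 genes was 0.08, and that of all 9527 genes was 0.01. As a group, therefore, the growth factors had no common direction on these arrays, and the description rests on single genes.

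**Figure D1:**
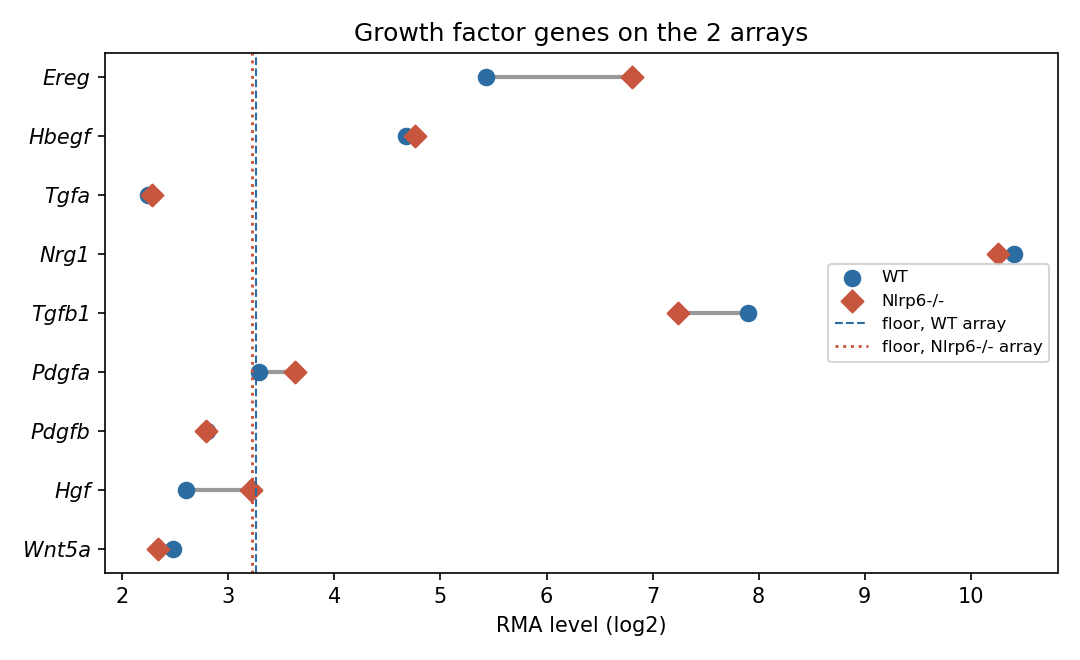
RMA level (log2) of the 9 measured growth factor genes on the WT array (circles) and the Nlrp6-/- array (diamonds), with a grey line joining the 2 levels of a gene and vertical lines at the detection floors of 3.26 and 3.22. Ereg has the widest gap, with Nlrp6-/- on the right, Tgfb1 has the next widest, with Nlrp6-/- on the left, and Tgfa, Pdgfb, Hgf and Wnt5a lie left of the floors.

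Ereg encodes epiregulin, a ligand of EGFR and ERBB4 that is induced in myeloid cells by inflammatory signals. Its brighter probe set, 17439021, was at 5.43 in WT against 6.81 in Nlrp6-/-. Its other probe set, 17548464, was at 4.42 in WT against 6.06 in Nlrp6-/-, a difference of 1.64 (3.11-fold). Both probe sets were thus above the floor on both arrays and higher in Nlrp6-/-, and their differences lay 0.26 apart. For comparison, 422 genes had more than 1 probe set above both floors, and the gap within a gene had a median of 0.31.

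Among the 8565 genes above the floor on both arrays, 46 had a larger difference towards Nlrp6-/- than Ereg, or 0.537%. Genes of a like level gave a similar share. Of the 1436 other genes whose mean level lay within 0.5 of that of Ereg, 11 were higher in Nlrp6-/- by at least as much, or 0.766%. The differences of these neighbours in level had an SD of 0.42 across genes, which is not a replicate error. Among the 1391 silent receptor genes, which serve as background, the differences ran from -0.94 to 0.89. The difference in Ereg lay outside that range, which does not measure the spread of genes at its higher level.

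Hbegf, the heparin-binding ligand of EGFR and ERBB4, was at 4.68 in WT against 4.76 in Nlrp6-/-. Its difference of 0.08 was smaller than the SD of 0.19 among the silent receptor probe sets. Tgfa, transforming growth factor alpha, was at 2.25 and 2.28, under both floors. The measured EGF receptor ligands therefore did not move together: Ereg was higher in Nlrp6-/-, Hbegf was nearly level, and no level could be given for Tgfa.

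Nrg1 encodes neuregulin 1, which binds ERBB3 and ERBB4 rather than EGFR and is a stem cell niche factor of the gut. Its single probe set was at 10.41 in WT against 10.26 in Nlrp6-/-, which placed it 7.15 and 7.04 above the floors. The difference of -0.15 is less than the SD of 0.21 among the 119 other genes within 0.5 of its mean level. Of these 119 genes, 24 were lower in Nlrp6-/- by at least as much. Nrg1 signal was thus far above background in both samples, with a difference inside the spread of genes of that level.

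The family's other ligands were mostly at background. Of 11 ErbB ligands, 10 had a probe set, 4 of these were above the floor and 6 were under both floors. The fourth above the floor, besides Ereg, Hbegf and Nrg1, was Nrg4, a neuregulin that binds ERBB4, at 4.12 in WT against 3.59 in Nlrp6-/-, a difference of -0.53 that missed 1.5-fold. Egf, Btc, Epgn, Nrg2 and Nrg3 were under both floors.

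**Figure D2:**
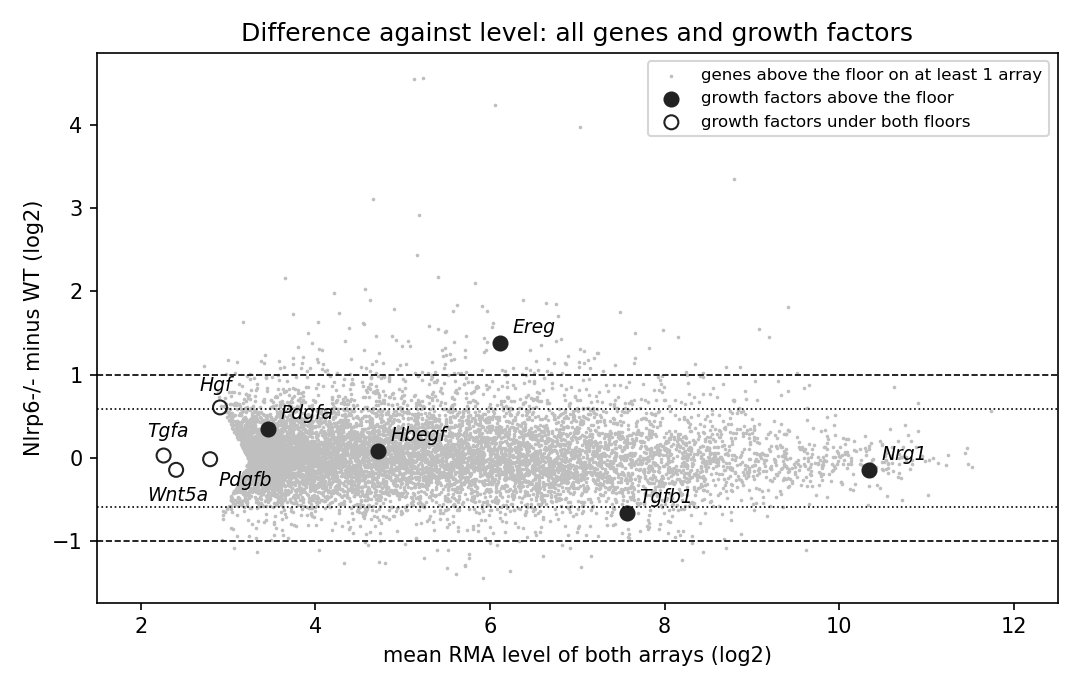
Difference (Nlrp6-/- minus WT, log2) against the mean RMA level of both arrays (log2) for all genes detected on 1 or both arrays (grey dots) and for the growth factors above the floor (filled circles) or under both floors (open circles); dashed lines mark 2-fold and dotted lines 1.5-fold. Ereg lies above the upper dashed line at 1.38, Tgfb1 lies between the lower dotted and dashed lines at -0.66, and the other growth factors above the floor lie inside the dotted lines.

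Receptors of these ligands were scarcely detected in the sorted cells. Egfr was at 3.57 in WT against 3.89 in Nlrp6-/-, a difference of 0.32. Erbb2 (3.15 and 3.11), Erbb3 (2.84 and 2.48) and Erbb4 (2.23 and 2.14) were under the floor on both arrays. The monocyte samples thus carried signal for 4 ErbB ligands and for 1 of 4 receptors, with Egfr close to the floor.

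The next list holds genes that release the ligands and Timp3, whose product inhibits ADAM17. Of 11 listed, 8 were above the floor, 7 of these had a value below that of WT, 1 was lower by 1.5-fold or more and 0 were higher by as much. The shares of all genes at 1.5-fold were 3.05% lower and 6.21% higher. Adam17, the main sheddase, was at 8.46 in WT against 7.84 in Nlrp6-/-, a difference of -0.62. Rhbdf2, which encodes iRhom2, the cofactor that carries ADAM17 to the surface of myeloid cells, was at 7.96 and 7.41, a difference of -0.54 that missed 1.5-fold. Adam10, another sheddase, was at 6.99 and 6.75. Adam9 was nearly level, at 7.73 and 7.70, a difference of -0.02. Rhbdd1 differed by -0.10, Frmd8 by -0.28 and Adam15 by -0.26 (-0.55 on its second probe set). The differences of Adam9 and Rhbdd1 were smaller than the SD of 0.19 among the silent receptor probe sets. The gene with a higher value was the inhibitor Timp3, at 4.03 and 4.42, a difference of 0.39. The median of the 8 genes was -0.25, against 0.01 for all genes above the floor.

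Inhibitors that ErbB and ERK signalling induces or recruits to limit itself were divided. Of 17 listed, 13 were above the floor, 2 were higher in Nlrp6-/- by 1.5-fold or more and 0 were lower by as much. Spry2, a Sprouty inhibitor of receptor signalling, was at 4.18 in WT against 5.04 in Nlrp6-/-, a difference of 0.86. Dusp6, the cytoplasmic ERK phosphatase, was at 6.61 and 7.43, a difference of 0.82, and its second probe set was at 4.67 and 5.13, a difference of 0.46 that missed 1.5-fold. Errfi1, a direct inhibitor of EGFR, differed by 0.54, and Cblb, a ubiquitin ligase, by -0.54. The median of the 13 genes was 0.26, and it was -0.04 over all 17 listed genes when no floor was applied.

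Tgfb1 encodes the latent cytokine transforming growth factor beta 1, which restrains inflammation and drives matrix formation during repair. Its probe set, 17475342, was at 7.90 in WT against 7.24 in Nlrp6-/-. Of the 8565 genes above both floors, 174 had a lower difference, or 2.03%. Of the 845 other genes within 0.5 of its mean level, 27 were lower by at least as much, or 3.20%. The difference of -0.66 lay inside the range of the silent receptor genes, whose lowest difference was -0.94, and just past the 1.5-fold threshold. Of the 1391 silent genes 12 reached 1.5-fold, and their range does not measure the spread of genes at the higher level of Tgfb1.

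The Tgfb1 promoter is shown because Tgfb1 is the gene past 1.5-fold with an entry in the RefSeq promoter table of mouse build GRCm38.p6, which matched 5 of the 10 genes (Areg, Tgfa, Tgfb1, Pdgfa and Hgf). The window runs from 250 bases before to 50 after the annotated start, at chr7:25686752-25687051 on the plus strand, and capitals mark the GC box GGGCGG or its reverse complement.
Tgfb1: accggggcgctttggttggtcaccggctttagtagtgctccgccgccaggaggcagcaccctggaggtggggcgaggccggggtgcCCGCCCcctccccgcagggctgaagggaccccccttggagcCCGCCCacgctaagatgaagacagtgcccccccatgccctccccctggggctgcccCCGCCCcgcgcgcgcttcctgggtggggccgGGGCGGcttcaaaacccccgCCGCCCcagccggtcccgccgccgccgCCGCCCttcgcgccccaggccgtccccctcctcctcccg
The window held 6 GC boxes, a number reached by 1.35% of the 32851 promoters in the table, and 77.0% of its bases were G or C. It held no match on either strand to the cyclic AMP response element TGACGTCA, the AP-1 motif TGANTCA or the sequence TATAAA, which were in 1.79%, 7.81% and 13.6% of all promoters. The Areg window held 1 TGACGTCA, 2 GC boxes and 1 TATAAA. These matches describe letters in the window and no binding was measured.

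No gene listed for the storage, activation or binding of transforming growth factor beta passed 1.5-fold. Of 17 listed genes for its other isoforms, receptors and activators, 12 were above the floor and 0 differed by 1.5-fold in either direction. The receptor genes Tgfbr1 (5.67 in WT against 5.83 in Nlrp6-/-) and Tgfbr2 (4.06 in both) were nearly level. Thbs1, which encodes the activator thrombospondin 1, was at 10.55 and 10.42. Itgav, the integrin chain of the activating integrins, was at 8.41 and 7.96, while its second probe set was at 5.31 and 5.35, so its probe sets disagreed. The highest differences in the list were those of Lrrc32, which encodes GARP, a surface anchor of the latent cytokine (3.35 and 3.87, a difference of 0.52), and of the co-receptor gene Eng (4.51 and 4.98, a difference of 0.48).

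Of 16 genes listed for the signalling and response of this cytokine, 15 were named, 14 were above the floor and 0 differed by 1.5-fold. Of these, 7 had a higher and 7 a lower value in Nlrp6-/-, from -0.36 for Smad2, a signal transducer of the receptor, to 0.29 for Smad7, with a median of -0.02. Tgfbi, a matrix protein named for its induction by it, was at 10.27 in WT against 10.20 in Nlrp6-/-. Smad7, its feedback inhibitor, was at 4.98 and 5.27, and Skil, another, was at 7.27 and 7.42.

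Pdgfa and Pdgfb encode the chains of platelet-derived growth factor, which recruits fibroblasts and pericytes. Pdgfa was at 3.28 in WT against 3.63 in Nlrp6-/-, 0.02 and 0.40 above the floors, and its difference of 0.34 missed 1.5-fold. Pdgfb was at 2.80 and 2.79, under both floors. Of the 8 other genes of the pathway 5 were above the floor and 0 differed by 1.5-fold. Among them were Furin, a protease that matures the precursors, at 7.00 and 6.83, and the receptor genes Pdgfra, at 3.31 and 3.23, and Pdgfrb, at 4.25 in both.

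Hgf encodes hepatocyte growth factor, a mesenchymal factor that stimulates epithelial cells through the receptor MET. It was at 2.60 in WT against 3.21 in Nlrp6-/-, under the floor by 0.66 and by 0.01, so no fold is given although the measured gap was 0.61. Just outside the floor stood Hgf in Nlrp6-/-, and just inside it stood Pdgfa in WT.

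The receptor side of this pathway was measured in the monocytes. Met was at 8.27 in WT against 7.67 in Nlrp6-/-, a difference of -0.59 that passed 1.5-fold narrowly and missed it when the median difference or a loess curve was subtracted. Plau, the urokinase protease that can activate the precursor, was at 5.92 and 5.09, a difference of -0.83. Plat, the tissue plasminogen activator, was at 4.87 and 5.51, a difference of 0.64, and Spint2, an inhibitor of the activating proteases that epithelium expresses, was at 4.19 and 5.08, a difference of 0.89. Of the 10 listed genes 7 were above the floor, of which 2 were 1.5-fold or more higher and 2 were 1.5-fold or more lower. The shares of all genes were 6.21% higher and 3.05% lower.

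Wnt5a encodes a Wnt ligand that acts mainly without beta-catenin and marks mesenchyme in healing colon wounds. It was at 2.48 in WT against 2.33 in Nlrp6-/-, under both floors. Of 27 other Wnt ligands, receptors and secretion factors, 22 were also under both floors, 5 were above and 0 differed by 1.5-fold. Wls, needed to secrete Wnt proteins, was at 4.47 and 4.46, and Fzd5, a receptor of WNT5A, was at 3.73 and 3.84.

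Over the 10 pathway lists together, 149 of 152 genes were named and 86 were above the floor. Of these 86, 5 were higher by 1.5-fold or more (5.81%) and 4 lower by as much (4.65%), near the 6.21% and 3.05% of all genes, and 0 differed by 2-fold. The median difference was 0.03. Neither pooled share sets these pathways apart from the rest of the array. The HGF pathway list, with 7 genes above the floor, held 2 of the 5 higher and 2 of the 4 lower genes.

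**Figure D3:**
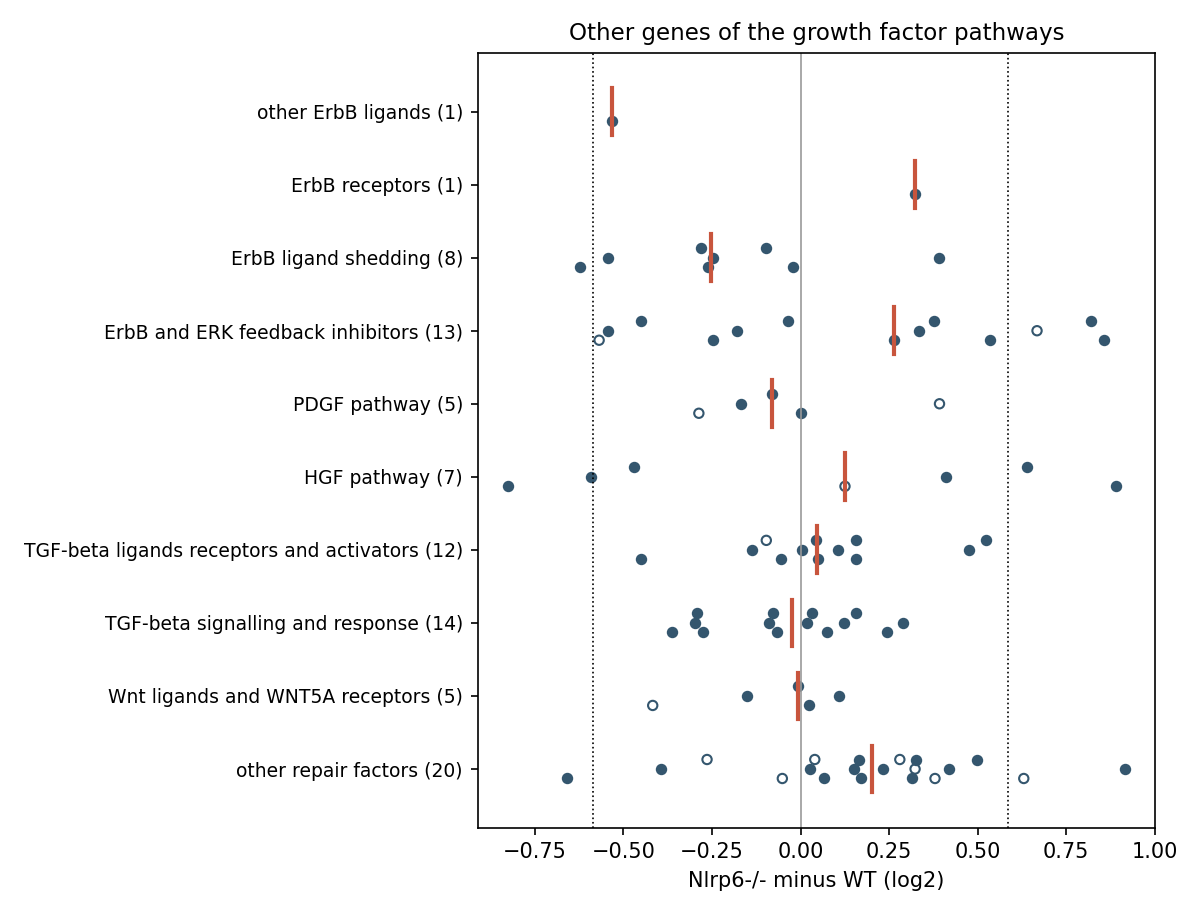
Difference (Nlrp6-/- minus WT, log2) of the genes detected on 1 or both arrays in the 10 pathway lists, with the number of such genes in brackets; filled points are above both floors, open points above 1, red bars are list medians and dotted lines mark 1.5-fold. In the shedding list 7 of 8 points lie left of 0, with a median of -0.25, and the point to the right is the inhibitor Timp3. In the HGF pathway list, 2 of 7 points lie past the right dotted line and 2 past the left. Points past the dotted lines are few in each of the other lists (open points can pass the line while their bound does not).

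The sort was checked against markers. All 17 named monocyte markers were above the floor on both arrays, with a median difference of 0.07. In 2 of the 17 the Nlrp6-/- value was higher by 1.5-fold or more (F13a1, a coagulation factor chain, by 1.06, and Fcgr1, the high-affinity IgG receptor, by 0.88) and 0 were lower by as much. Their summed linear signal was 10224 in WT against 9886 in Nlrp6-/-. The probe set for Nlrp6 was under both floors, at 2.32 and 2.67, so the array gives no check of the genotype.

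Some markers listed for other cells were higher in the Nlrp6-/- sample, beside the higher Ereg. Of 18 epithelial markers above the floor, 9 were at least 1.5-fold higher, against 6.21% of all genes. The summed linear signal of all 25 was 553 in WT and 858 in Nlrp6-/-. Cdx1, Cdx2, Krt20, Car4, Slc26a3, Fabp2 and Reg3g were under both floors. Reg3b (6.88 and 6.87) and Agr2 (6.32 and 6.38), the brightest in WT, were nearly level. Muc2 differed by 0.11, Car1 and Tff3 by 0.15, Cldn3 by -0.01 and Fcgbp by -0.02. Of 16 stromal markers, 5 were at least 1.5-fold higher, and their summed signal was 770.4 and 1401. Other stromal markers differed little: Acta2 by -0.16, Pdgfra by -0.08, Des by -0.05, Pdgfrb by 0.003, Myh11 by 0.03 and Col1a1 by 0.05. The B and plasma cell markers (4 of 9 higher, summed signal 1037 and 1741, Ms4a1 under both floors) stood higher as well. Of the neutrophil markers, 3 of 7 were higher, with summed signals of 664 and 844. Mpo, Elane, Camp, Ltf, Ngp, Mmp9 and Stfa1 were under both floors. The 3 were S100a8 (1.16), S100a9 (1.03) and Retnlg, which was above the floor in Nlrp6-/- only. Csf3r (-0.05) and Mmp8 (-0.17) were slightly lower, and Ly6g (0.26) and Cxcr2 missed 1.5-fold. Each summed signal covers all named genes of its list, also those under the floors, and is weighted to the brightest probe sets. These were Jchain (9.22 and 10.09) for B and plasma cells, and Dcn (7.48 and 8.46) and Mgp (7.43 and 8.88) for stroma. No marker in these 4 lists was 1.5-fold lower. Some of these calls rested on 1 of several probe sets: Cdh1 differed by 1.47 or 0.29, Krt18 by 1.42 or 0.33, Col1a2 by 1.19 or 0.22 and Col6a1 by 1.13 or 0.07. Their part in the difference of Ereg, or of Spint2 and Plat, was not tested.

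Of 12 markers of T, NK and innate lymphoid cells above the floor, 1 was 1.5-fold higher. The summed signal of all 16 named was 640 in WT and 652 in Nlrp6-/-, and the sums below likewise cover every named marker. Mature macrophage markers, beside the lower Tgfb1, had 0 of 6 past 1.5-fold, a median of -0.07 and a summed signal of 709 and 644. Endothelial markers had 0 of 3 past 1.5-fold, with summed signals of 166 and 182. Dendritic cell markers had 0 of 3 past 1.5-fold, with 413 and 376. Of 3 mast cell, basophil and eosinophil markers above the floor, 1 was 1.5-fold higher (Prg2, eosinophil major basic protein, 4.15 and 5.62), with a median of 0.56 and summed signals of 153 and 192. Their part in the difference of Tgfb1 was not tested.

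**Figure D4:**
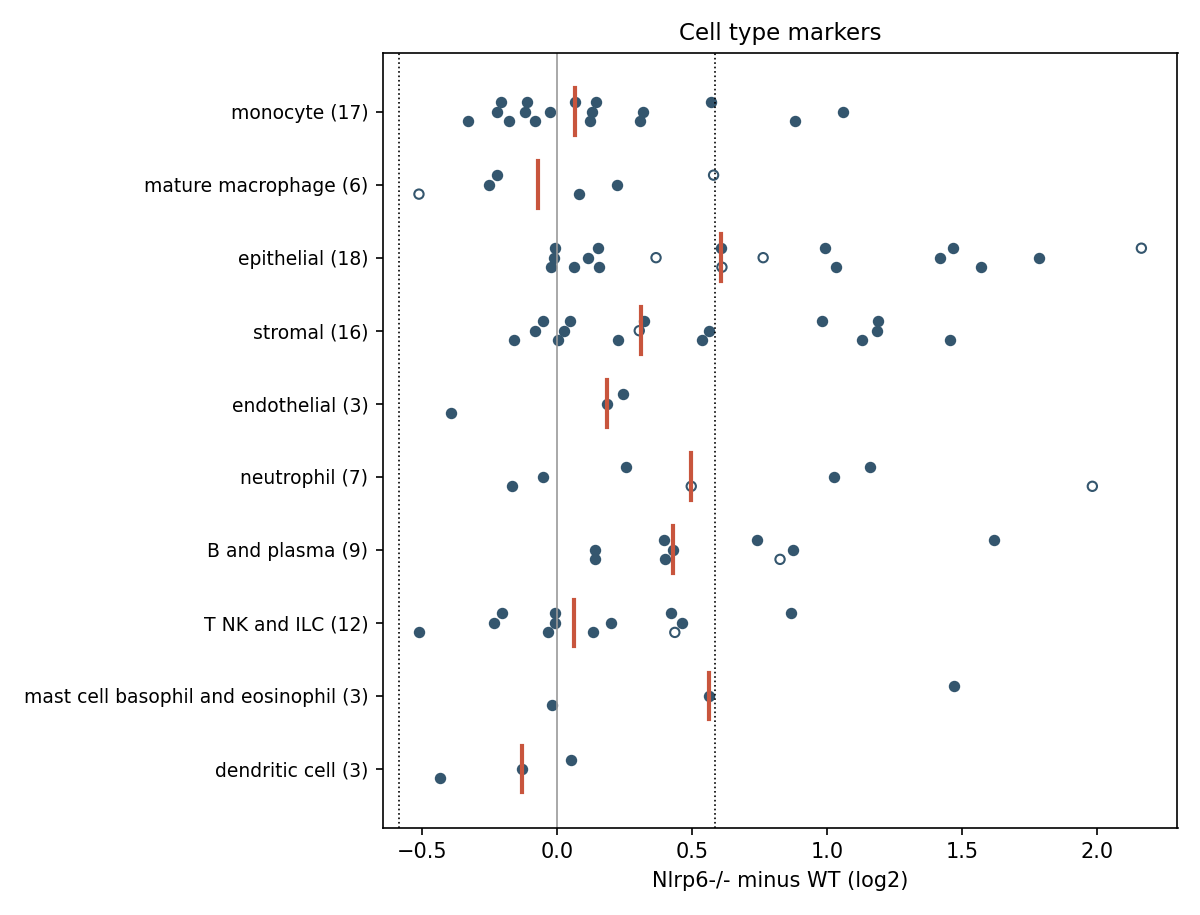
Difference (Nlrp6-/- minus WT, log2) of the cell type markers detected on 1 or both arrays, with their number in brackets; filled points are above both floors, open points above 1, red bars are list medians and dotted lines mark 1.5-fold. The monocyte markers centre near 0, with a median of 0.07, with 2 of 17 past 1.5-fold, while some of the epithelial, stromal, neutrophil and B and plasma cell markers reach far to the right.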

How the data were processed

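RNA of sorted monocytes was amplified from 10 ng and hybridised to 2 arrays, 1 per genotype, per the labels' protocols. The protocol fields name different labelling kits. The authors deposited log2 levels made with the oligo package (R 2.15.1) by RMA, robust multiarray averaging, per the labels' protocols. Because RMA gives the arrays 1 common distribution, a change shared by all transcripts is removed. The set of arrays normalized jointly is not stated in the labels.

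Probe sets were named from the platform annotation: of 41345, 23525 had 1 symbol, 1810 several and 16010 none. A gene took its probe set with the highest mean, which left 22184 genes. Differences are Nlrp6-/- minus WT. Where 1 array was under its floor, the call used a lower bound, taken against the higher of that floor and the measured level. Genes under both had no fold. With 1 array per group no test was run, and the number of arrays limits the precision. The calling code (Python 3.11.15, pandas 2.3.3, numpy 2.4.6) was tested on simulated data.

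The growth factors and lists were chosen with earlier results of these data known. All 10 were named, with the receptors, the list genes past 1.5-fold and otherwise the 2 brightest of a list. Genes named beyond this rule, after their values were seen, were Rhbdf2, Adam10, Errfi1, Cblb, Timp3, Lrrc32, Eng, Smad2, Smad7, Vegfa, Grn, Igf1, Fgf7 and the genes next to Ereg. Adam9, Adam15, Rhbdd1 and Frmd8 were also named in this way. So were the markers Cdh1, Krt18, Col1a2, Col6a1, F13a1, Fcgr1, Prg2, S100a8, S100a9, Retnlg, Csf3r, Mmp8, Ly6g, Cxcr2, Jchain, Dcn and Mgp. The markers Reg3b, Agr2, Muc2, Car1, Tff3, Cldn3, Fcgbp, Acta2, Des, Myh11 and Col1a1 were likewise named after their values were seen. Alternatives were 3 scalings, 3 floors, 2 rules for probe sets and a 3-fold threshold.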

Additional observations from a re-analysis of the deposited data

How the results depend on the processing

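Under 8 alternative settings (3 scalings, 3 floors and 2 rules for probe sets), Ereg was higher in Nlrp6-/- by 1.36 to 1.64 and Tgfb1 differed by -0.66 to -0.65, past 2-fold and 1.5-fold in every setting. With no floor, Hgf joined Ereg, so 2 growth factors were at least 1.5-fold higher. At 3-fold, 0 were higher with the brighter probe set of Ereg, while its dimmer probe set, with a difference of 1.64, passed 3-fold. With the floor at the 99th percentile 3 genes were above it (Ereg, Nrg1 and Tgfb1), and the median of the growth factors was -0.15 in place of 0.08, because Hbegf and Pdgfa dropped out. That floor also left 93 genes of the whole array 2-fold higher instead of 154. Of 72 values of single growth factors, 71 stayed within 1 SD of the silent receptors' differences (0.19), and the exception was the dimmer probe set of Ereg at 1.64. Most of these values could not move: a floor leaves a measured difference as it is. The rules for probe sets could change only Ereg, the 1 growth factor with several. Of 688 values of pathway genes, where the same limit holds for genes with 1 probe set, 4 moved by more than that SD. Of the pathway genes past 1.5-fold, Dusp6 (0.46 with its dimmer probe set) and Met (-0.58 with the median difference or a loess curve subtracted) missed it. With the floor at the 99th percentile Plat, Spint2 and Spry2 missed it too, with lower bounds of 0.43, 0 and 0. Adam17, Plau, Il22 and Inhba passed it in all 8 settings. Of 471 list values 30 moved by more than that SD or by 1.5 times. The highest floor left 4 epithelial, 3 stromal and 2 B and plasma cell markers past 1.5-fold. No growth factor or pathway gene past 1.5-fold changed direction. No paired analysis was possible because each genotype has 1 array and the labels give no replicate numbers. Signal over background limits Tgfa, Pdgfb, Hgf, Wnt5a and Pdgfa, which lay under or close to the floor.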

Other observations

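Of 36 other growth and repair factors listed, 34 were named and 20 were above the floor, with a median difference of 0.20. Il22, a cytokine that acts on epithelium and is made by lymphoid cells and some neutrophils, was at 4.90 in WT against 5.82 in Nlrp6-/-, a difference of 0.92, and was the gene at least 1.5-fold higher. Inhba, which encodes the activin A subunit of the transforming growth factor beta family, was at 8.33 and 7.67, a difference of -0.66, and was the gene at least 1.5-fold lower. Vegfa, the main angiogenic factor, was at 7.32 and 7.64, and Grn, which encodes progranulin, was at 9.31 and 8.92. Igf1, a growth factor of repair macrophages, was at 3.54 and 3.71, and Fgf7, a fibroblast factor for epithelium, was above the floor in Nlrp6-/- only, at 2.97 and 3.60.

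Ereg lies in a run of EGF family genes in the RefSeq gene order of mouse assembly GRCm38.p6, between Epgn and Areg and followed by Btc. Epgn (1.97 in WT and 2.14 in Nlrp6-/-) and Btc (2.18 and 2.08) were under both floors. The next genes outward above the floor were Cxcl2, at 10.39 and 10.38, and Parm1, at 4.06 and 3.98.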
